A study of Homo sapiens with 66 samples.

Results

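The 45 genes described here encode the machinery of DNA replication and of nucleotide supply. They were taken by symbol from a fixed list, were matched to Ensembl gene IDs, and are 45 of the 58721 gene IDs counted. All 45 passed the low-count filter in each of the 3 experiments. They fall into 6 roles: 11 origin licensing genes, 8 genes of helicase activation and S-phase entry, 8 polymerase and primase genes, 8 genes of the sliding clamp, its loader and strand maturation, 5 nucleotide supply genes and 5 genes of fork protection, checkpoint signalling and replicated chromatin.

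Poly(A) RNA of A375 cells, a human melanoma line that grows on mutant BRAF signalling, was sequenced in 66 libraries of 22 groups, with 3 libraries in each group. In the vemurafenib experiment, control cells with a GFP guide and cells with knockout of MED12, MED19 or MED23, each made with 2 guides (guide 1 and guide 2), received DMSO or 1 µM of the BRAF inhibitor vemurafenib for 24 h. In the SOX10 experiment, GFP guide cells or MED23 knockout cells (guide 1) carried SOX10 overexpression or the control labelled EV. In the HDAC3 experiment, control cells, HDAC3 knockout cells, MED23 knockout cells and cells lacking both were compared, and no drug is labelled for these last 2 experiments. MED12, MED19 and MED23 belong to Mediator, a coactivator that bridges sequence-specific factors and RNA polymerase II; HDAC3 is the histone deacetylase of the NCoR and SMRT corepressors; SOX10 is a transcription factor of the melanocyte lineage. Whether a knockout line is 1 clone or a pool, and whether the 3 libraries of a group came from separate cultures, is not stated in the labels, so p-values measure the spread between these libraries, which may be technical.

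Before DNA is copied, ORC, CDC6 and CDT1 load the MCM2-7 helicase onto origins in G1, a step held in check by geminin (GMNN). At the start of S phase, CDK with cyclin E, other kinases, MCM10, CDC45 and the GINS complex switch the helicase on. The primase, the polymerases and the clamp PCNA then copy the strands from deoxynucleotides made by ribonucleotide reductase (RRM1 and RRM2), TYMS, TK1 and DUT. Many of these genes are known targets of E2F factors, which are held off by RB until CDK activity rises, and BRAF inhibition is known to arrest such cells in G1.

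Because E2F sites are the textbook feature of these promoters, the letters upstream of 6 members are shown. Of these, 4 have an E2F-type word in the stretch shown (MCM6, PCNA, UHRF1 and POLA1). MCM10 has none in its listed window. In CLSPN the word spans the transcript start, so the end of the stretch cuts it and it is not in capitals. MCM10 and CLSPN had some of the deepest falls under the drug. The bases lie within 200 bases before a RefSeq transcript start (GRCh38.p14), outside every exon of GENCODE 29, and are given 5′ to 3′ on the gene's strand. Capitals mark the words searched on either strand: TTTCCCGC, TTTCGCGC, TTTGCCGC or TTTGGCGC (E2F-type) and CCAAT, read as ATTGG on the other strand. E2F-type words can overlap each other, as in MCM6.
MCM6: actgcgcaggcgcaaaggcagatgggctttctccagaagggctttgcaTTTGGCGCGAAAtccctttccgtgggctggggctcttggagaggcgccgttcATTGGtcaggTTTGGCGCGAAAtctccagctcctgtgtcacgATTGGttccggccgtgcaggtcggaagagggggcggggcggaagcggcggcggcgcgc
PCNA: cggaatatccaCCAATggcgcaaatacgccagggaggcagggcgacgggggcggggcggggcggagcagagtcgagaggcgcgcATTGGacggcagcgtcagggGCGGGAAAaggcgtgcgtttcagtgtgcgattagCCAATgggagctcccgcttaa
UHRF1: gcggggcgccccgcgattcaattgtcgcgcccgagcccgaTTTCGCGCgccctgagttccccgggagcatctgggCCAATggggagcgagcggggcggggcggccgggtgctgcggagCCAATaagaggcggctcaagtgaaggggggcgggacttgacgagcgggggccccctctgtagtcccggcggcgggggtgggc
POLA1: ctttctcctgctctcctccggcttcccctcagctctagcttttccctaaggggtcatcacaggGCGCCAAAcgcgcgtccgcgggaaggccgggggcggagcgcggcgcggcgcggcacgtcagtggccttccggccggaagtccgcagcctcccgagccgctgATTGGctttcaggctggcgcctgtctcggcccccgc
MCM10: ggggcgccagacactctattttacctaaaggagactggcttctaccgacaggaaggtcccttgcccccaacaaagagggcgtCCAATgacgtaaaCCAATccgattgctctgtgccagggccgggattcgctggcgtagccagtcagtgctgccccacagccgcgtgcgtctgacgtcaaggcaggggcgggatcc
CLSPN: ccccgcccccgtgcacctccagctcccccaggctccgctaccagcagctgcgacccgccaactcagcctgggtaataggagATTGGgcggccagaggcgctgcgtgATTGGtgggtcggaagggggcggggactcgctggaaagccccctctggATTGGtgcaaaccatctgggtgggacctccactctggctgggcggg
MCM6 is shown for chr2:135876444-135876643 (minus strand), PCNA for chr20:5126627-5126785 (minus strand), UHRF1 for chr19:4909944-4910143 (plus strand), POLA1 for chrX:24693718-24693917 (plus strand), MCM10 for chr10:13161358-13161553 (plus strand) and CLSPN for chr1:35769979-35770178 (minus strand). The UHRF1 stretch lies in an intron of the gene as GENCODE draws it (chr19:4903080-4962154), and the others lie upstream of it. RefSeq windows of 300 bases (250 before to 50 after a start) were listed for 39 of the 45 members. An E2F-type word was found in 24 of their 55 windows (43.6%), in 8 of 60 windows (13.3%) of other replication genes and in 1164 of all 35116 windows (3.32%). CCAAT was found in 54.5% of the members' windows, in 53.3% of those of other replication genes and in 34.6% of all windows. These matches describe letters, not bound sites.

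Library sizes were 65.9 to 211.8 M counts (M, 1e6 counts) in the vemurafenib experiment, 24.9 to 30.8 M in the SOX10 experiment and 58.8 to 106.2 M in the HDAC3 experiment. The targeted genes were lower where the labels say knockout: log2 fold changes in DMSO were -2.04 for MED12, -1.05 for MED19 and -1.12 for MED23. They were -0.95 and -1.07 for MED23 and -0.97 for HDAC3 in the other experiments, and 0.19 (GFP guide) and 0.80 (MED23 knockout) for SOX10 under overexpression. In that experiment SOX10 itself was lower with MED23 knockout, with log2 fold changes of -1.09 in EV cells and -0.48 in SOX10 overexpressing cells. Of 8 melanocytic or neural crest markers, 8, 6 and 7 reached 1 CPM (counts divided by the scaled library size in M) in a group of the 3 experiments in turn. Their highest group means were 1257 CPM (ERBB3), 600 CPM (SOX10) and 470 CPM (SOX10). SOX10 is the gene overexpressed in the SOX10 experiment. Summed over the 8 markers, libraries of the vemurafenib experiment ranged from 197 to 2635 CPM. The 2 endothelial markers also reached 1 CPM in each experiment, and 1 of 4 blood markers did in the vemurafenib experiment. Blood, endothelial, epithelial, liver and muscle markers had group means of at most 2.45 CPM. Mitochondrial genes took 1.19% ± 0.043 (SD, n = 3) of counts in control DMSO libraries and 2.54% ± 0.20 (SD, n = 3) under vemurafenib; their part in the results was not tested.

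In control cells vemurafenib lowered every one of the 45 members. All 45 passed the test (edgeR's quasi-likelihood test, Benjamini-Hochberg adjusted p under 0.05 over 27453 genes), against 30.3% of all genes lower and 35.8% higher, and 44 fell at least 2-fold, against 11.2% of all genes. The median log2 fold change was -2.09 for the members and 0.11 for all genes tested. The summed level of the members was 4533 ± 69.8 CPM (SD, n = 3) in DMSO and 994 ± 1.43 CPM under the drug. In bulk RNA, fewer cells in S phase and less RNA per cell cannot be told apart.

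**Figure D1:**
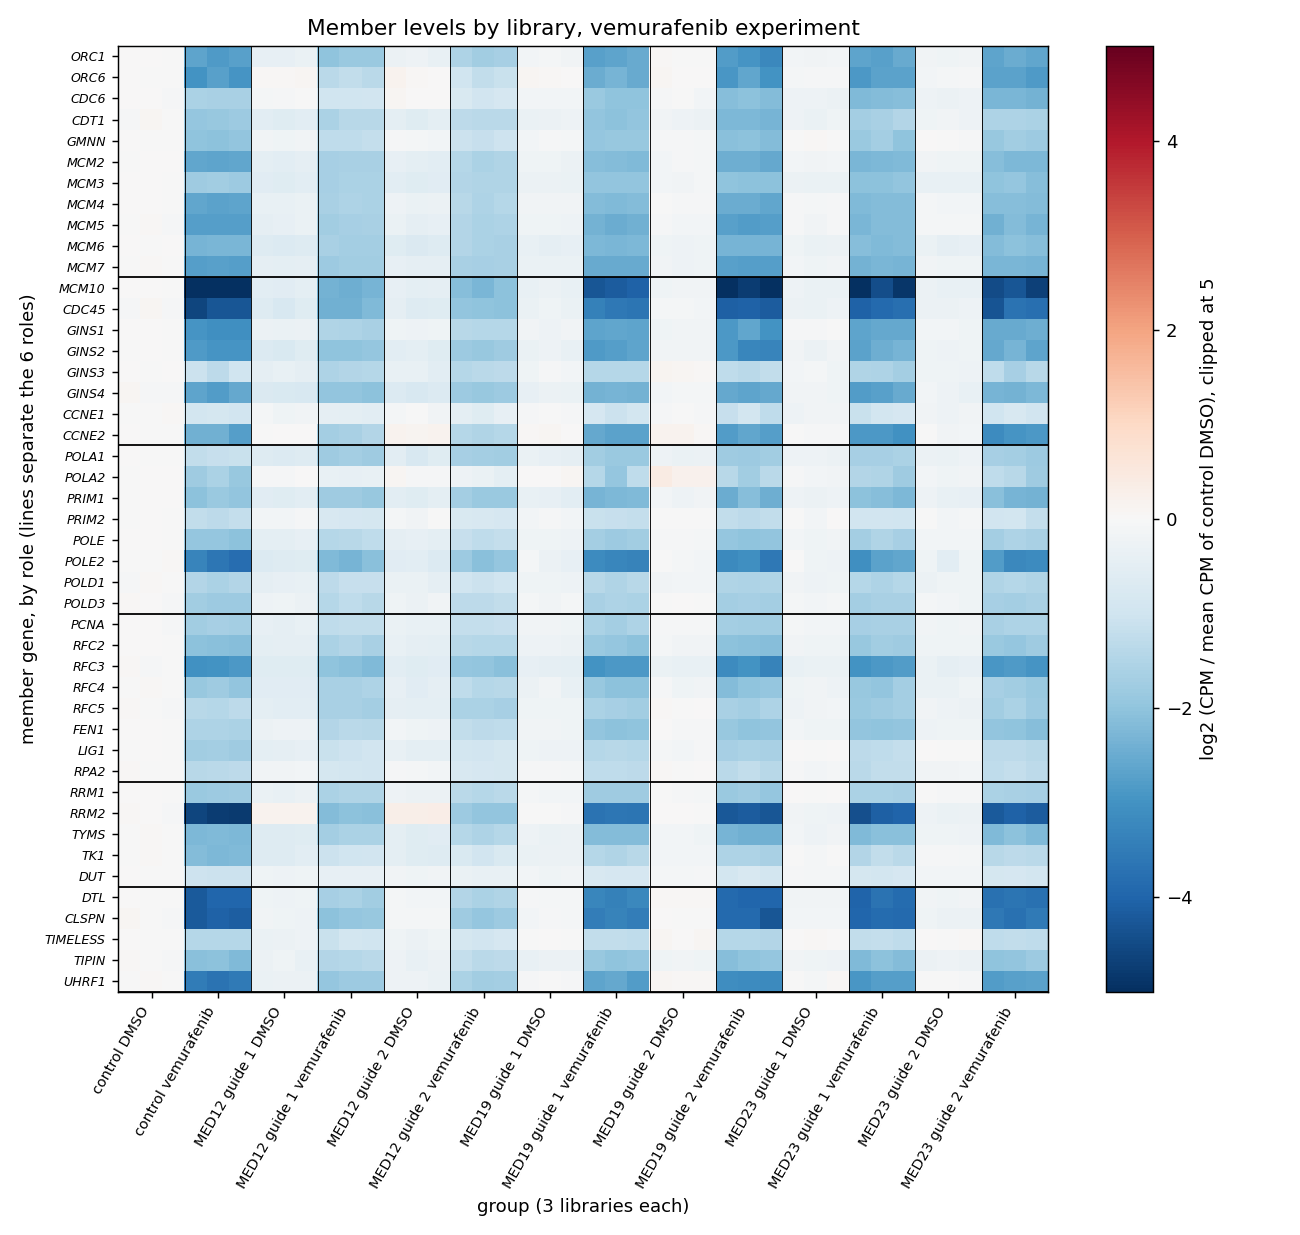
Level of each member (rows, by role) in each of the 42 libraries of the vemurafenib experiment (columns, 3 per group), as log2 of CPM over the mean of control DMSO, with colours clipped at 5. Control vemurafenib libraries are the darkest for MCM10, RRM2, CDC45, CLSPN and DTL, and both MED12 guides are paler under the drug.

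The deepest falls were in helicase activation, nucleotide supply and checkpoint genes. MCM10, which helps to open the helicase, was at 74.4, 72.9 and 71.0 CPM in the 3 control DMSO libraries and at 2.15, 2.29 and 2.08 CPM under vemurafenib. The groups lie far apart, and the log2 fold change was -5.07 ± 0.072 (SE, adjusted p = 7.82e-46). RRM2, the regulated subunit of ribonucleotide reductase, was at 254, 244 and 231 CPM in DMSO and at 9.94, 9.1 and 8.76 CPM under the drug, without overlap. Its log2 fold change was -4.71 ± 0.054 (SE, adjusted p = 2.38e-49), and 20.2% of its exon length overlaps another gene on the same strand, so its counts are uncertain. CDC45, a helicase cofactor, fell from 31.5, 34.3 and 31.4 CPM to 1.35, 1.65 and 1.68 CPM, a log2 fold change of -4.37 ± 0.087 (SE, adjusted p = 6.84e-40). CLSPN, the adaptor that passes the ATR signal to CHK1, and DTL, which marks CDT1 for destruction in S phase, fell by comparable steps (-4.12 ± 0.059 and -4.05 ± 0.047). UHRF1, which reads hemimethylated DNA behind the fork, had a log2 fold change of -3.57 ± 0.048, and POLE2, a subunit of the leading strand polymerase, -3.56 ± 0.12.

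The shallowest falls were scattered over the roles. CCNE1, the G1/S cyclin E1, was at 20.5, 20.6 and 21.9 CPM in DMSO and at 11.1, 11.4 and 10.7 CPM under the drug, the only member below a 2-fold change (-0.93 ± 0.064 (SE, adjusted p = 5.22e-18)). Its paralog CCNE2 had 21.4, 21.1 and 20.8 CPM and 4.04, 3.99 and 3.13 CPM, a log2 fold change of -2.51 ± 0.069; 37.1% of its exon length overlaps INTS8 on the opposite strand, and whether counting used strand is not stated. Shorter overlaps cover 14.5% of DUT and 10.9% of GINS3 on the opposite strand and 14.9% of PRIM1 on the same strand. DUT, which destroys dUTP, had a log2 fold change of -1.07 ± 0.029, and POLA1, the catalytic subunit of the primase polymerase, -1.16 ± 0.043. Among the licensing genes ORC6, a subunit of the origin recognition complex, had the deepest change at -2.88 ± 0.066 and CDC6, the loader of MCM2-7, the shallowest at -1.60 ± 0.038. MCM5, part of the MCM2-7 ring, was at 105, 111 and 102 CPM and 15.7, 15.6 and 15.8 CPM. In the clamp group RFC3, a subunit of the clamp loader, was lowest at -2.96 ± 0.053 and RPA2, of the single strand binding complex, highest at -1.35 ± 0.034. PCNA, the clamp itself and the most abundant member per kilobase of exon in control DMSO cells (185 CPM per kb), fell from 277, 276 and 264 CPM to 81.4, 85.1 and 82.8 CPM.

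By role, the median log2 fold change under the drug was -2.61 for licensing, -2.78 for helicase activation and S-phase entry, -1.77 for polymerases and primase, -1.73 for the clamp group, -2.21 for nucleotide supply and -3.57 for the fork and checkpoint group. TYMS, the maker of thymidylate, was at 80.5, 84.0 and 80.1 CPM in DMSO and 17.0, 17.7 and 17.1 CPM under the drug, and UHRF1 at 176, 184 and 177 CPM and 15.7, 13.8 and 15.5 CPM. Both fell clear of overlap. Across the 45 members the log2 changes under the drug in control cells and in MED12, MED19 or MED23 knockout cells, which share no library but come from 1 experiment, had Pearson correlations of 0.80, 0.96 and 0.95 over genes, which are not independent replicates.

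The 23 members with an E2F-type word in a listed window had a median log2 fold change of -2.10 under the drug, and the 16 without one -1.92. Both groups span most of the range, from -4.12 to -1.07 with a word and from -5.07 to -0.93 without. The lowest value is that of CLSPN among those with a word and of MCM10 among those without.

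Other genes of replication, a list of 54 in 4 groups, moved less. Of these, 48 fell and 6 rose, with a median log2 fold change of -1.18. ASF1B, a histone chaperone, was the lowest at -3.27, and POLD4, a small subunit of polymerase delta, the highest at 1.19.

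MED12 knockout raised most members under the drug, and it did so from lower levels in DMSO. In DMSO, 40 of 45 members were lower in MED12 knockout cells than in control cells, against 27.0% of all genes lower and 27.9% higher, with a median log2 fold change of -0.39. GINS4, part of the GINS complex, was lowest (-0.74 ± 0.047 (SE, adjusted p = 4.20e-19)), and 21.2% of its exon length overlaps an antisense gene. RRM2 alone rose, from 254, 244 and 231 CPM in control cells to 274 to 308 CPM over the 6 MED12 knockout libraries, a log2 fold change of 0.25 ± 0.038 (SE, adjusted p = 1.51e-07). By library totals without TMM scaling, 35 were lower and 4 higher, and with guide 2 alone 36 were lower and 2, RRM2 and CCNE2, higher.

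Under vemurafenib the same comparison gave 42 members higher and 3 lower, against 32.5% and 29.6% of all genes. The median log2 fold change was 0.73, and 15 members were higher by at least 2-fold, against 10.9% of all genes. MCM10 was at 14.1, 13.4 and 14.6 CPM with guide 1 and 16.8, 15.0 and 17.3 CPM with guide 2, above all control drug libraries, and its log2 fold change was 2.80 ± 0.070 (SE, adjusted p = 1.03e-35). RRM2 was at 54.5, 58.3 and 56.5 CPM and 69.1, 62.5 and 61.4 CPM with the 2 guides, again above every control drug library, with 2.70 ± 0.049 (SE, adjusted p = 2.27e-41). DTL, CLSPN and CDC45 were higher by 2.46 ± 0.044, 2.21 ± 0.055 and 2.21 ± 0.084 on the log2 scale. All 11 licensing genes were higher, from MCM3 (0.23 ± 0.027) to ORC6 (1.67 ± 0.061).

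The 3 members that were lower came from 3 roles. POLA1 was at 42.1, 44.8 and 45.3 CPM in control drug libraries and at 28.9 to 30.9 CPM over the 6 MED12 knockout drug libraries, without overlap (-0.56 ± 0.037 (SE, adjusted p = 2.50e-18)). GINS3, of the GINS complex, had -0.30 ± 0.059, and RFC5, of the clamp loader, -0.26 ± 0.039.

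The drug lowered all 45 members in MED12 knockout cells as well, against 30.8% of all genes lower and 32.4% higher, but 27 rather than 44 fell at least 2-fold (5.42% of all genes), and the median log2 fold change was -1.07. The test of the difference between the 2 drug responses called 43 members, all with a smaller fall in MED12 knockout cells, against 24.9% of all genes with a smaller fall or larger rise and 24.2% the other way. The median difference was 1.17 and 26 members differed by at least 2-fold, against 6.31% of all genes. MCM10 had the largest difference (3.29 ± 0.083 (SE, adjusted p = 8.50e-35)), with CDC45 at 2.84 ± 0.10, DTL at 2.64 ± 0.054 and RRM2 at 2.46 ± 0.061. POLA1 (0.09 ± 0.053 (SE, adjusted p = 0.152)) and GINS3 (0.12 ± 0.081 (SE, adjusted p = 0.23)) did not pass; POLA1 passed with DESeq2 size factors, without the low-count filter and by the DESeq2 Wald test.

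By role, the median difference was 1.35 for licensing, 1.54 for helicase activation and S-phase entry, 0.76 for polymerases and primase, 0.91 for the clamp group, 1.28 for nucleotide supply and 2.10 for the fork and checkpoint group. UHRF1 was at 46.6, 50.9 and 50.7 CPM with guide 1 and 59.0, 53.8 and 54.6 CPM with guide 2 under the drug, and CLSPN at 20.4, 21.9 and 22.6 CPM and 24.7, 21.9 and 24.1 CPM. Control drug libraries were lower for both, at 13.8 to 15.7 CPM and 4.59 to 5.2 CPM. Of the 54 other replication genes, 43 had a higher log2 change under the drug with MED12 knockout than in control cells and 5 a lower one, with a median difference of 0.59. ASF1B had the largest (1.84), and SAMHD1, which breaks down deoxynucleotides, the lowest (-0.79).

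In levels, the median member kept 23.5% of its DMSO level under the drug in control cells, from 2.99% for MCM10 to 52.7% for CCNE1. With MED12 guides 1 and 2 the median was 46.0% and 48.7%, from RRM2 (20.5% and 21.4%) to DUT (87.6% and 88.2%). Since MED12 knockout cells began lower, the drug level was 33.4% and 37.1% of the control DMSO level at the median. TK1, the salvage kinase for thymidine, shows both parts: it was at 119 to 127 CPM in control DMSO, 77.6 to 86.0 CPM in MED12 knockout DMSO, 58.3 to 71.9 CPM in MED12 knockout with drug and 25.5 to 27.3 CPM in control with drug. The 2 drug groups do not overlap.

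**Figure D2:**
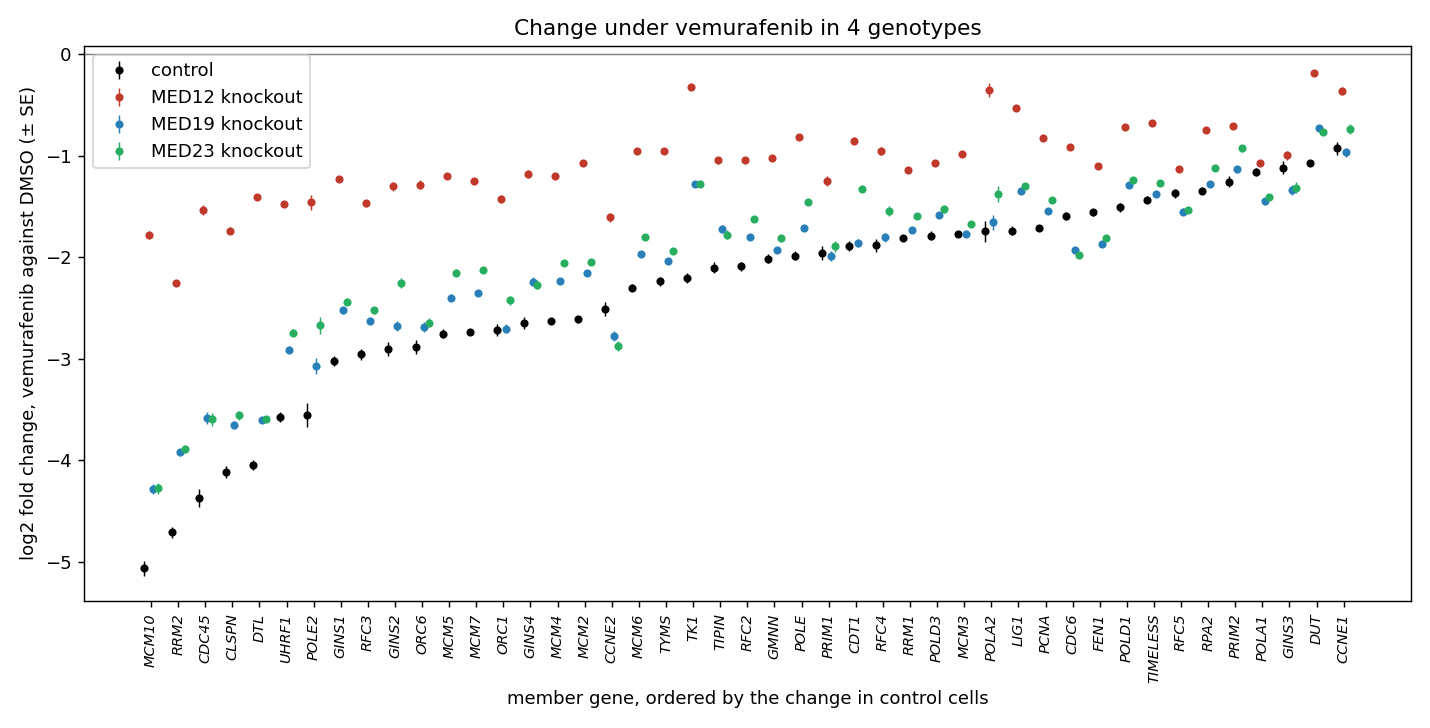
Log2 fold change of each member under vemurafenib against DMSO (± SE, points) in control, MED12, MED19 and MED23 knockout cells (3 control or 6 knockout libraries per arm), ordered by the change in control cells. MED12 knockout points lie above the control points for all 45 members, most of all for MCM10 (-1.78 against -5.07).

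MED19 and MED23 knockout changed the members less than MED12 knockout did, with lower levels in DMSO and changes in both directions under the drug. In DMSO, 29 members were lower in MED19 knockout cells and 35 in MED23 knockout cells, with none higher, against 20.2% and 18.5% of all genes lower and 20.4% and 18.4% higher. RFC3 was the lowest member in both (-0.40 ± 0.040 and -0.36 ± 0.040). By library totals 3 and 1 members were higher, and 2 with only the compared groups or guide 2 alone for MED19. Guide 2 alone gave 20 lower.

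Under the drug, 21 members were higher and 10 lower with MED19 knockout, against 23.1% and 20.7% of all genes, so the members' share lower is near that of all genes. With guide 2 alone 9 were higher and 12 lower, against 5340 and 4811 of 27453 genes. More members were then lower than higher, and the share higher is near that of all genes. With MED23 knockout 29 were higher and 8 lower, against 24.6% and 22.7% of all genes, so the members' share lower is below that of all genes. TK1 rose in both, by 0.71 ± 0.042 and 0.86 ± 0.042, with 39.9 to 46.3 CPM and 44.4 to 52.4 CPM against 27.3, 25.5 and 26.4 CPM in control drug libraries. CDC6 fell in both, from 37.9, 36.9 and 36.4 CPM in control drug libraries to 24.8 to 30.7 CPM and 22.0 to 25.3 CPM (-0.44 ± 0.034 (SE, adjusted p = 1.05e-15) and -0.64 ± 0.035 (SE, adjusted p = 1.88e-21)). In MED12 knockout it was at 55.6 to 65.7 CPM, above control.

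The drug lowered all 45 members in both knockouts, against 32.6% (MED19) and 32.1% (MED23) of all genes lower and 37.7% and 37.4% higher. At least a 2-fold fall was seen in 43 and 42 members, against 9.11% and 9.53% of all genes. The drug response itself differed from control in 32 members for MED19 (26 smaller falls and 6 larger, against 17.4% and 15.2% of all genes). For MED23 it differed in 42 members (37 smaller and 5 larger, against 18.5% and 16.2%). The shares of all genes give a smaller fall or larger rise first, then the other way. For MED19 guide 1 alone gave 35 smaller and 3 larger falls, and guide 2 alone 14 and 7. Of all 27453 genes, 4890 and 4157 went these 2 ways with guide 1 alone, and 3523 and 3146 with guide 2 alone. TK1 had the largest difference in both knockouts (0.93 ± 0.056 and 0.93 ± 0.056). CDC6 had the most negative (-0.34 ± 0.047 and -0.38 ± 0.047), with FEN1, the flap endonuclease, POLA1, CCNE2 and RFC5 also negative in both. These tests share the control libraries, so the values are given side by side only. The CCNE2 difference did not pass without replicate 1 in both or without replicate 2 for MED19. The RFC5 difference did not pass without replicate 3 or without the low-count filter in both, nor without replicate 1 or with only the groups compared for MED23. Leaving out replicate 1 gave 3 rather than 5 larger falls for MED23.

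Drug-treated MED12 knockout libraries were compared directly with the other knockouts. Members were higher in MED12 than in MED23 knockout cells for 43 of 45 (median 0.57, 29.9% of all genes) and than in MED19 knockout cells for 43 of 45 (median 0.68, 29.5% of all genes), with none lower (25.8% and 25.8% of all genes). At least a 2-fold difference was seen for 11 and 14 members, against 6.82% and 6.87% of all genes. MCM10 differed most, by 2.33 ± 0.054 (SE, adjusted p = 1.61e-36) and 2.28 ± 0.050 (SE, adjusted p = 2.15e-37). Between MED19 and MED23 knockouts 6 members were higher and 24 lower in MED19, against 19.0% and 17.6% of all genes. CDT1, the MCM loading factor, was lowest (-0.56 ± 0.039). Guide 1 alone gave 12 and 11, against 3995 and 3549 of 27453 genes. Guide 2 alone gave 2 and 27, against 4198 and 4044.

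**Figure D3:**
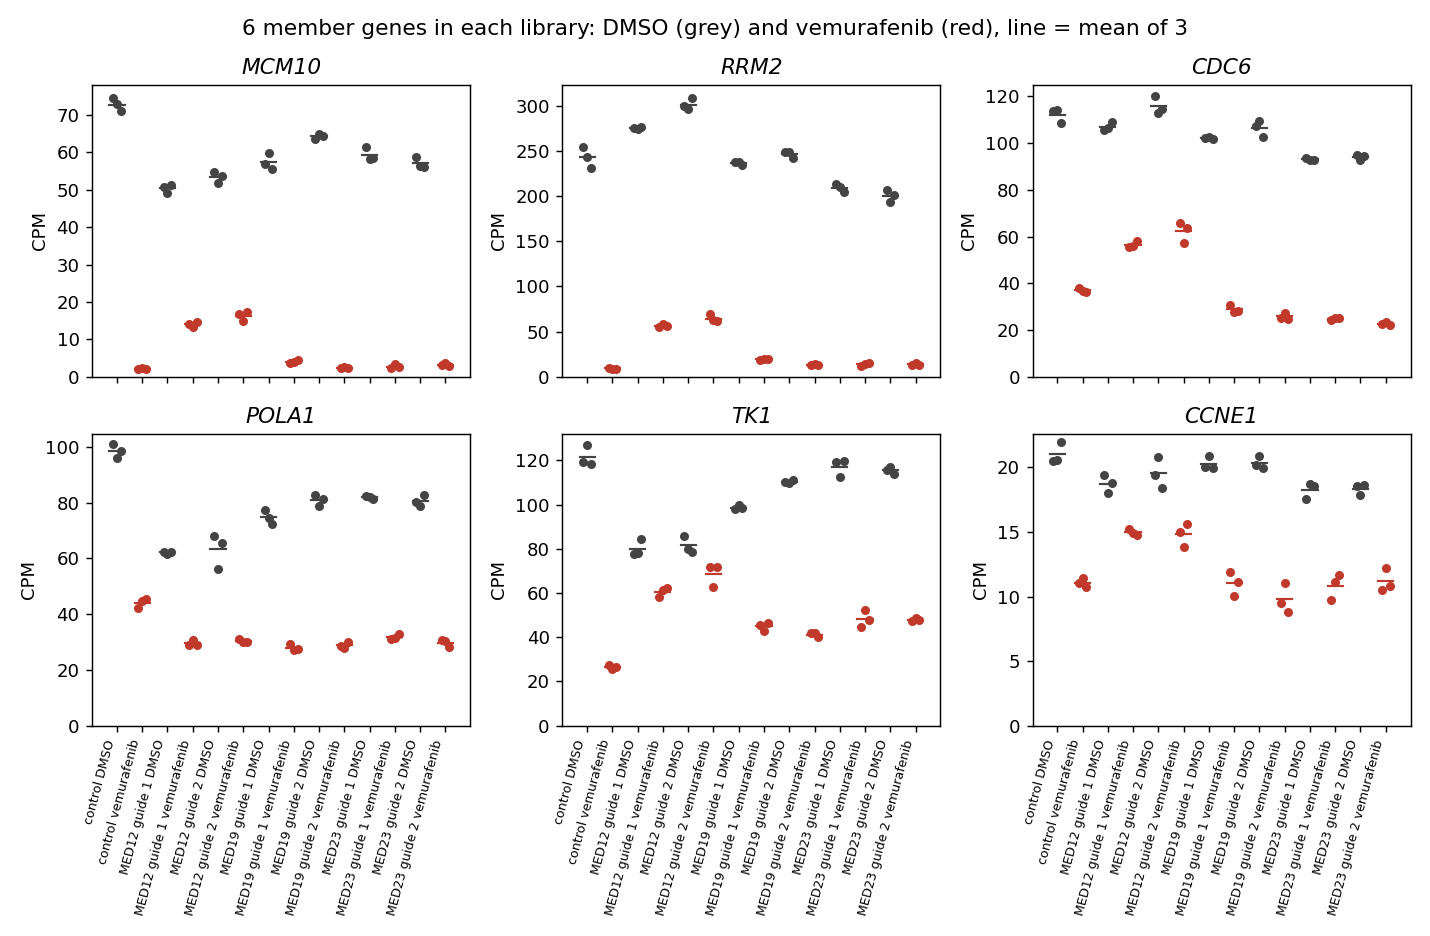
CPM of 6 members in each library of the vemurafenib experiment (points, 3 per group; line, mean; axes from 0), with DMSO in grey and vemurafenib in red. MED12 knockout drug libraries stand above the control drug libraries in MCM10, RRM2, CDC6, TK1 and CCNE1 and below them in POLA1, where all knockouts are low.

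In the SOX10 experiment, MED23 knockout in EV cells lowered 40 of 45 members, against 22.3% of all genes lower and 21.2% higher, with a median log2 fold change of -0.27. MCM10 was at 79.6, 78.7 and 81.0 CPM in control EV and at 58.2, 58.8 and 56.2 CPM in MED23 knockout EV libraries, without overlap (-0.47 ± 0.035 (SE, adjusted p = 3.60e-12)). PRIM1, the small primase subunit, and POLE2 had -0.48 ± 0.065 and -0.49 ± 0.064. Across the 3 experiments, 34 of 45 members were lower with MED23 knockout in each, against 2015 of the 17953 genes tested in all (11.2%). The HDAC3 experiment had 37 lower of 45, against 12.0% of all genes lower and 12.3% higher, and 20 without replicate 2.

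SOX10 RNA itself rose by a log2 fold change of 0.19 under overexpression in control cells, against 0.80 in MED23 knockout cells. SOX10 overexpression in control cells changed few members: 1 rose and 6 fell, against 11.6% and 11.0% of all genes. The members' share that fell is near that of all genes, and the share that rose is below it. The riser was RFC3 (0.11 ± 0.035 (SE, adjusted p = 0.0225)), which did not pass when any 1 replicate was left out, and UHRF1 was the lowest (-0.19 ± 0.032 (SE, adjusted p = 4.45e-05)). Without replicate 2, 1 fell. In MED23 knockout cells SOX10 raised 32 and lowered none, against 21.2% and 20.7% of all genes, with a median of 0.15; 18 rose without replicate 3. MCM10 was at 71.8, 71.6 and 73.4 CPM, between the MED23 knockout EV libraries and the control EV libraries (0.32 ± 0.035 (SE, adjusted p = 9.25e-09)). GINS4 had the largest rise, from 14.2, 16.1 and 15.7 CPM to 19.3, 23.9 and 20.5 CPM (0.47 ± 0.071 (SE, adjusted p = 3.08e-06)), and GINS2 rose by 0.36 ± 0.042.

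The test of the difference called 25 members with a higher SOX10 response in MED23 knockout than in control cells, against 7.64% of all genes, and none lower, against 7.04%. Without replicate 3 it called 10, and without replicate 2, 12. SOX10 itself rose more in MED23 knockout cells, by the values above, but stayed lower there than in control cells with SOX10 overexpression (log2 fold change -0.48). In SOX10 overexpressing cells, 19 members were lower and 3 were higher with MED23 knockout, against 16.3% and 16.1% of all genes. None was higher without replicate 2 or 3. The median member was at 82.8% of control in MED23 knockout EV cells and at 92.5% with SOX10.

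In the HDAC3 experiment, whose control columns were assigned by elimination, either knockout alone lowered most members, and fewer were lower with both. HDAC3 knockout lowered 36 of 45 (median -0.31, against 20.9% of all genes lower and 21.2% higher), and MED23 knockout lowered 37, as given above. UHRF1 was at 137, 127 and 125 CPM in control and at 85.1, 79.6 and 73.2 CPM in HDAC3 knockout libraries, without overlap (-0.71 ± 0.055 (SE, adjusted p = 4.16e-10)). POLE2 and GINS2 had -0.68 ± 0.083 and -0.62 ± 0.063. PCNA, at 325, 350.1 and 355 CPM in control and 309.8, 343 and 345 CPM in HDAC3 knockout libraries, did not pass, but did by library totals (-0.05 ± 0.047 (SE, adjusted p = 0.472) with TMM).

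With both genes knocked out, 18 members were lower than in control cells and 4 higher, against 18.4% and 18.2% of all genes. Without replicate 2 the counts were 6 and 2, and by library totals 25 and 2. CCNE2 was at 37.2, 35.5 and 38.4 CPM in double knockout libraries, 26.7, 29.1 and 30.0 CPM in control, 21.8, 25.6 and 27.6 CPM in HDAC3 knockout and 21.2, 23.8 and 26.9 CPM in MED23 knockout libraries. The double knockout lies above all others (0.37 ± 0.082 (SE, adjusted p = 9.74e-04)). PCNA was likewise highest there, at 424, 398 and 409 CPM against 276, 283 and 288 CPM in MED23 knockout libraries (0.26 ± 0.047 (SE, adjusted p = 1.44e-04) over control). POLD1, the catalytic subunit of polymerase delta, was the lowest member (-0.41 ± 0.075 (SE, adjusted p = 1.68e-04)).

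Read as steps, HDAC3 knockout raised 23 members and lowered 1 in MED23 knockout cells, against 19.1% and 18.9% of all genes, and the block on replicate number gave 26 and 1. By library totals these were 13 and 6, and 14 rose without replicate 2. MED23 knockout raised 32 in HDAC3 knockout cells and lowered 1, against 17.2% and 18.3% of all genes. GMNN rose most, from 38.9, 43.8 and 44.5 CPM to 71.5, 68.5 and 66.0 CPM (0.70 ± 0.067 (SE, adjusted p = 2.13e-08)). TYMS, which makes thymidylate, rose from 56.4, 54.3 and 53.8 CPM to 79.2, 78.1 and 76.5 CPM (0.51 ± 0.045 (SE, adjusted p = 4.80e-09)); 39.2% of its exon length overlaps ENOSF1 on the opposite strand. The single lower member was MCM3 (-0.12 ± 0.042 (SE, adjusted p = 0.0366)), which did not pass when any 1 replicate was left out, by library totals, without the low-count filter or with only the groups compared.

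The test of the difference between the 2 steps called 44 of 45 members, against 10.0% of all genes higher and 10.5% lower. All 44 were higher with both knockouts than the sum of the single log2 changes. This test uses the same control libraries as the comparisons of each knockout with control, so these results are not independent. It called 28 without replicate 2, MCM3 not among them, and 37 without replicate 3. The median was 0.47, from MCM3 (0.23 ± 0.059) to GINS2 (0.86 ± 0.088 (SE, adjusted p = 1.83e-07)). GINS2 was at 48.8, 52.7 and 53.3 CPM in control, 30.1, 34.3 and 36.5 CPM in HDAC3 knockout, 39.3, 39.3 and 41.8 CPM in MED23 knockout and 49.2, 47.1 and 46.4 CPM in double knockout libraries. Each single knockout lies below control, and the double knockout lies above both. POLA2 was the member not called (0.39 ± 0.14 (SE, adjusted p = 0.0567)); it passed with the replicate block and without replicate 1, and 35.1% of its exon length overlaps another gene on the same strand. The median member was at 80.9% of control with HDAC3 knockout, 84.2% with MED23 knockout and 94.9% with both. RNA of the targeted genes was less reduced in double knockout libraries. Against control, HDAC3 was at -0.73 there and -0.97 in the single knockout, and MED23 at -0.91 and -1.07. By the same test the difference passed for HDAC3 (0.20, adjusted p = 0.0476) and not for MED23 (0.09, adjusted p = 0.526). The HDAC3 value is close to the threshold of 0.05, and no alternative is given for either gene. The part of this smaller reduction of the targeted genes in the members' values was not tested. Of the 54 other replication genes, 27 had a higher and 1 a lower difference.

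**Figure D4:**
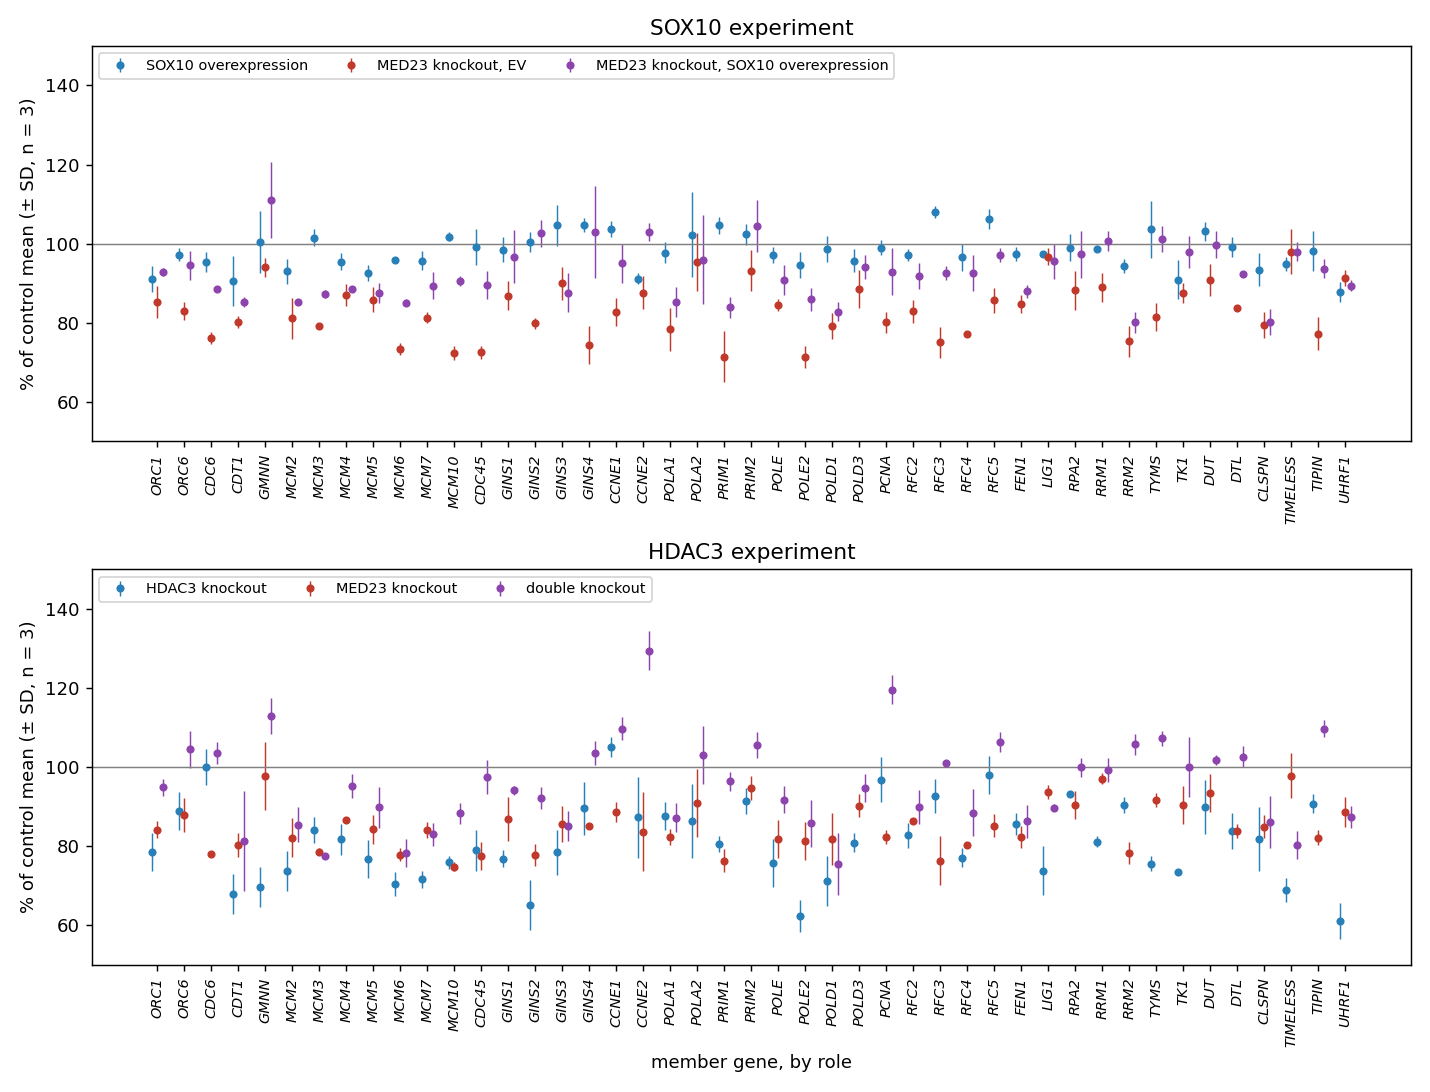
Mean level of each member as a percentage of the control mean (± SD, n = 3) in the SOX10 experiment (top) and the HDAC3 experiment (bottom). In the bottom panel the double knockout lies above control for CCNE2 and PCNA, and both single knockouts lie below 100% for most members.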

How the data were processed

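Poly(A) RNA libraries were made with a stranded KAPA kit, per the labels' protocols. The tools named in the submitters' processing notes are bcl2fastq, HISAT2 and HTSeq, on build hg38. Their versions, the annotation and the strand setting are not given in the sources that were used, so counts of genes that overlap others are uncertain. The deposited values are raw counts of reads per gene, in 1 table per experiment. Of the 66 columns, 15 carry a name other than the sample title, and the 3 control columns of the HDAC3 experiment, named for GFP, were assigned by elimination.

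The members, gene lists and tests were chosen with earlier results of these data known. The rule for named genes allows every member, the highest and lowest of each role, members that go against their role and up to 6 other replication genes. Each experiment was fitted alone with edgeR 4.0.16 in R 4.3.3: filterByExpr (minimum count 10, minimum total 15), TMM scaling, 1 mean per group, quasi-likelihood test, Benjamini-Hochberg adjustment over all genes, guides weighted equally. A gene is called at an adjusted p under 0.05. The SE of a log2 fold change was obtained from its F statistic (size over the root of F). CPM is the count over the TMM-scaled library size in M (1e6 counts), and CPM per kb divides it by GENCODE 29 exon length. The procedure was tested on simulated data. Alternatives were other scalings, no filter, DESeq2 1.42.0, a replicate block, only the groups compared, 1 guide, a 2-fold minimum and leaving out each replicate. Deviations of libraries with the same replicate number, over genes with a mean log2 CPM above 2, correlated above 0.1 in every pair only for HDAC3 knockout in MED23 knockout cells (0.152 to 0.332). Over all genes tested these pairs gave 0.0076 to 0.039. HDAC3 knockout in control cells had a higher mean over the first set of genes (0.312), with a lowest pair of 0.092. No label says what a replicate number marks, so whether samples are paired is not known, and the block is given as an alternative.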

Additional observations from a re-analysis of the deposited data

Results flagged for a closer look

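Each test below asks whether 1 change has different effects in 2 backgrounds, and each called members by edgeR's quasi-likelihood test. The drug response was smaller in MED12 knockout than in control cells for 43 members, against 24.9% of all genes with a smaller fall or larger rise. It was smaller for 26 members and larger for 6 in MED19 knockout cells. Of all genes, 17.4% had a smaller fall or larger rise there and 15.2% went the other way. The drug response was smaller for 37 and larger for 5 in MED23 knockout cells, against 18.5% and 16.2% of all genes in the same 2 directions. The members' share with a larger fall was near the share of all genes in that direction for MED19 and below it for MED23. The response to SOX10 overexpression was higher in MED23 knockout cells for 25 members, against 7.64% of all genes. The response to HDAC3 knockout was higher in MED23 knockout cells for 44 members, against 10.0% of all genes. The mitochondrial share of counts under the drug was 2.54% in control libraries against 2.05% and 1.84% with the MED12 guides, and its part was not tested.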

How the results depend on the processing

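All 45 members passed the low-count filter in each experiment, so each was tested. Whether depth limited the calls was not tested. With a 2-fold minimum, 44 members fell under vemurafenib in control cells, 27 in MED12, 43 in MED19 and 42 in MED23 knockout cells. With that minimum MED12 knockout gave 15 higher and 0 lower under the drug, 26 smaller responses to the drug, 11 higher than MED23 knockout and 14 higher than MED19 knockout; every other count, higher or lower, was 0.

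Library totals without TMM moved the median of all genes by more than 0.1 in the comparisons of drug with DMSO and of HDAC3 knockout, from 0.11 to 0.30 for the drug in control cells. By library totals, 4 members were higher with MED12 knockout, 3 with MED19 knockout and 1 with MED23 knockout in DMSO. They gave 13 higher and 6 lower for HDAC3 knockout in MED23 knockout cells, 0 lower for MED23 knockout in HDAC3 knockout cells and 2 higher for the double knockout. MED23 knockout in HDAC3 knockout cells also had 0 lower without the filter and with only the groups compared. Only the groups compared gave 2 higher for MED19 knockout in DMSO and 1 higher for MED23 knockout with SOX10 overexpression. The DESeq2 Wald test gave 3 lower for SOX10 in control cells and 0 higher for MED23 knockout with SOX10.

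Guide 2 alone gave 2 higher for MED12 knockout and 2 for MED19 knockout in DMSO, 9 higher and 12 lower for MED19 knockout under the drug and 14 smaller drug responses with MED19 knockout. Guide 1 alone gave 3 larger responses there. Between MED19 and MED23 knockout under the drug, guide 1 alone gave 12 higher and 11 lower, and guide 2 alone 2 higher.

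Leaving out each replicate in turn gave 3 to 5 larger drug responses with MED23 knockout. In the SOX10 experiment it gave 0 higher and 1 to 7 lower for SOX10 in control cells, 18 to 33 higher in MED23 knockout cells, 0 to 3 higher for MED23 knockout with SOX10 and 10 to 31 for the difference test. In the HDAC3 experiment it gave 14 to 21 higher for HDAC3 knockout in MED23 knockout cells, 20 to 35 lower for MED23 knockout alone and 0 lower for MED23 knockout in HDAC3 knockout cells. The double knockout had 2 to 3 higher and 6 to 17 lower, and the difference test called 28 to 44.

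The replicate block gave 26 higher and 1 lower for HDAC3 knockout in MED23 knockout cells, 45 in place of 44 for the difference test of that experiment and 28 in place of 25 for that of the SOX10 experiment. It moved no count by more than 1.5 times. Of 76 single values named, 66 kept their direction and side of the threshold under every alternative, and none reversed.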
